A study of Mus musculus with 8 samples.

Results

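The CDK inhibitor genes Cdkn1a, Cdkn1b, Cdkn2a, Cdkn2b, Cdkn2c and Cdkn2d were examined for CTCF sites in mouse embryo fibroblasts with and without Ash2l. A site was a member when its centre lay inside, or within 20 kb of, the body of 1 of these 6 genes in GENCODE vM1. This gave 20 sites of 104008, and all 20 passed the filter on low counts. Cdkn1a held 5 sites, Cdkn1b 1, Cdkn2a 4, Cdkn2b 3, Cdkn2c 4 and Cdkn2d 6, with 3 sites counted for both Cdkn2a and Cdkn2b, which are neighbours on chromosome 4.

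CTCF was mapped by ChIP-seq in 1 immortalised fibroblast line (iMEF2), in which both Ash2l alleles carry a floxed exon 4 and Cre-ER is expressed. Cells given 4-hydroxytamoxifen at 5 nM for 7 days (+HOT) were compared with cells of the same line given ethanol for 7 days (-HOT). All cells carry a retroviral shRNA against p19Arf, the second product of Cdkn2a, so the p19Arf message was targeted in -HOT and +HOT alike. The +HOT cells stopped dividing after day 3 of treatment and were passaged fewer times than the -HOT cells, so loss of Ash2l and arrest cannot be told apart here. Of 8 samples, the 4 immunoprecipitations (2 for each treatment, numbered R1 and R3 in the table) were used. The 4 inputs were not analysed here, and read changes may come from elsewhere than CTCF binding. Reads counted in sites numbered 4221752 and 3126722 in -HOT (R1, then R3), and 9280701 and 7653295 in +HOT, so the +HOT libraries were the deeper ones. The study treats the libraries as technical replicates, and the p-values below measure only the spread between them.

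CDK inhibitors stop the cell cycle by binding cyclins and their kinases. The Ink4 proteins p16Ink4a (Cdkn2a), p15Ink4b (Cdkn2b), p18Ink4c (Cdkn2c) and p19Ink4d (Cdkn2d) bind Cdk4 and Cdk6, which phosphorylate the retinoblastoma protein. The Cip/Kip proteins p21 (Cdkn1a) and p27 (Cdkn1b) act on a wider range of cyclin and kinase complexes. Cdkn2a also encodes p19Arf from its own first exon, and p19Arf binds Mdm2 and thereby stabilises p53, which activates Cdkn1a. Cultured fibroblasts that become senescent typically raise products of the Ink4 locus and p21. CTCF is a zinc finger protein that binds insulators and the anchors of chromatin loops.

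The strongest sites of Cdkn1a, Cdkn2a and Cdkn2b lay next to gene starts. Their best matches to a CTCF matrix of 20 positions, built from the strongest sites of the table, are shown because these sites hold most of the reads of their genes. Lower case marks the positions for which the matrix had no majority letter, and capitals mark the 14 positions for which it had one. Each line is named by the centre of its site, and the match can lie elsewhere in the site. The Cdkn2b match (chr4:88956536-88956555) and the Ink4a match (chr4:88927859-88927878) lay in introns, just downstream of the first exons. The Arf match (chr4:88940772-88940791) lay upstream of the Arf start, farther out than the centre of its site.
Cdkn1a intron, +1922 bp: gatGCCGGtAGGGGGCGCtg
Cdkn2b first exon, +343 bp: cttACCGGcAGAGGGCGCac
Cdkn2a Arf start, -116 bp: gctACTGCtAGGGGGCGGgc
Cdkn2a Ink4a start, -40 bp: cccGACTGcAGATGGGACac
The matrix letters were equal to 12 of 14 at the Cdkn1a site, to 10 at the Cdkn2b site, to 10 at the Arf site and to 7 at the Ink4a site. The first 3 matches passed a score that 5% of shuffled site sequences reach, and the Ink4a match did not, although the Ink4a site held more reads than the Arf site. Weaker sites farther from the genes carried another type of match, in which the same letters returned at several places.
Cdkn1a, -5109 bp: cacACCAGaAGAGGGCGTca
Cdkn2d, +8058 bp: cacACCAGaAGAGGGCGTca
Cdkn2d, +10384 bp: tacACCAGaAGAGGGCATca
Cdkn2d, -10846 bp: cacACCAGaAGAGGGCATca
Cdkn1b, -14082 bp: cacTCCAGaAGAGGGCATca
The first and the second of these lines are the same 20 letters on different chromosomes. The 12-letter run CCAGAAGAGGGC was present on either strand of 7 member sites (35%) and of 31.51% of all sites. It was picked as the commonest run among the matches of the members themselves, so the member share is not independent of that choice. The 7 sites include the Cdkn2c site 1457 bp upstream of its start. A match above the score was found at 15 of 20 member sites (75%) and at 86.4% of all sites. These matches describe sequence and do not show that CTCF was bound there.

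The site with the largest fold change among the members lay just before the start of Cdkn2b. It is shown whole, read along the gene, because no match in it passed the score and because it was lost in +HOT cells. Capitals mark its 8 CpG dinucleotides. The 199 bases lie at chr4:88957032-88957230 on the minus strand of NCBIM37 (mm9), from 91 to 289 bp upstream of the annotated start.
Cdkn2b, -190 bp: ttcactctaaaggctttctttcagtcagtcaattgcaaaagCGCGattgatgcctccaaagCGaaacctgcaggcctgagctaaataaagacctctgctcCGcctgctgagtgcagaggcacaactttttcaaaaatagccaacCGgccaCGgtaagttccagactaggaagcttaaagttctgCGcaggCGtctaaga

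Values are given as normalised reads, which are counts of a library divided by its effective size and brought to the mean size of the 4 libraries. Higher or lower means an adjusted p below 0.05, and gained or lost means that the log2 fold change in addition went past 1 or -1. The test was the quasi-likelihood test of edgeR, adjusted over all 99560 sites tested. Standard errors are abbreviated SE.

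**Figure D1:**
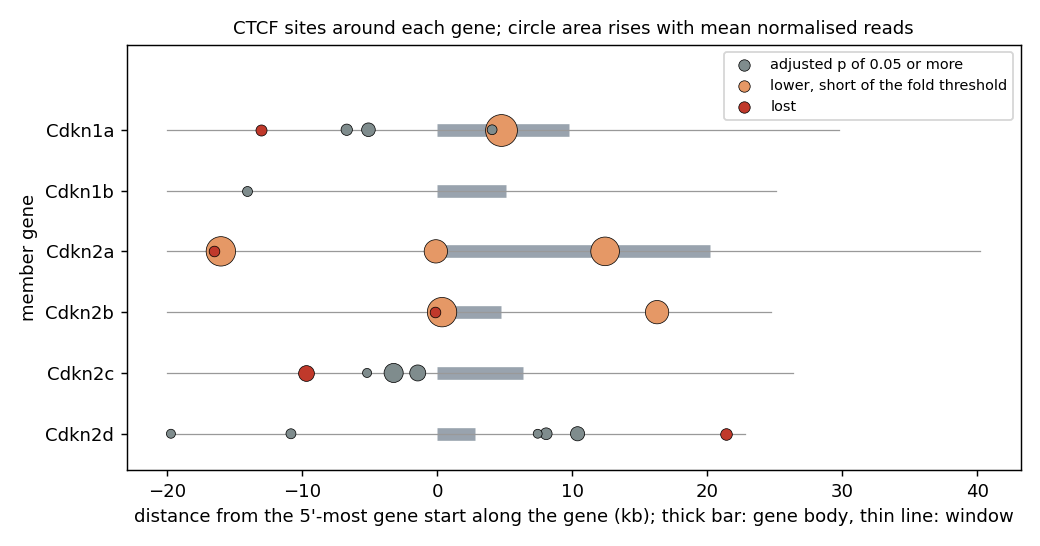
Positions of the 20 CTCF sites along the 6 genes, as distance in kb from the 5'-most start of each gene, with the gene body as a thick bar and the 20 kb windows as thin lines; the area of a circle rises with the mean normalised reads of the 4 libraries and its colour gives the call. The largest circles are the Cdkn1a intron site and the sites at the starts of Cdkn2a and Cdkn2b, and the 4 lost sites are small or medium in size.

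Among the 20 member sites, 0 were gained and 4 were lost, and 0 were higher and 8 were lower (edgeR). At an unadjusted p below 0.05 there were also 0 sites with a positive value, and DESeq2 called 0 higher. Of all sites tested, 3.9% were gained, 1.5% lost, 9.45% higher and 9.08% lower. The median log2 fold change of the members was -0.22 (quartiles -0.63 and 0.16), beside 0.0088 (quartiles -0.30 and 0.39) over all sites. Groups of libraries did not overlap at 10 members with +HOT lower and at 3 with +HOT higher, and 27.2% and 29.6% of all sites did so. With TMM scaling, 5 of the 8 lower sites lay near a member start. Within 3000 bp of a member start, 5 of 7 sites were lower and all 7 log2 fold changes were negative (median -0.40). Farther out, 3 of 13 sites were lower, and the median was 0.11. This placement by member starts turned round with scaling along site strength, alone or with GC. There, 1 site near a member start and 3 farther out were lower. The lower sites farther out included those 1029 bp from the Gm16197 start and 53 bp from the Faf1 start, so they lay near starts of other genes.

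Promoter sites over the whole table, defined as sites within 3000 bp of any annotated start, were lower in 24% of cases and lost in 6.01%, with a median of -0.28. Of the members 10 (50.0%) were promoter sites, beside 16.9% of all sites. CpG-island-like sites were those whose central 500 bp had more than 50% GC and over 0.6 of the CpG dinucleotides that their base composition predicts. This held for 6 members (30.0%) and for 5.0% of all sites. Of these 6 members 5 were lower and 2 lost (median -0.51), and of all CpG-island-like sites 38.3% were lower and 6.56% lost (median -0.45). The lost site at Cdkn2b -190 bp met this definition only narrowly, with 50.2% GC and a CpG ratio of 0.603. The 7 members with the 12-letter run included 0 called in either direction by edgeR or DESeq2, and 0 at an unadjusted p below 0.05 (median -0.08, against 0.09 over all sites with it).

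**Figure D2:**
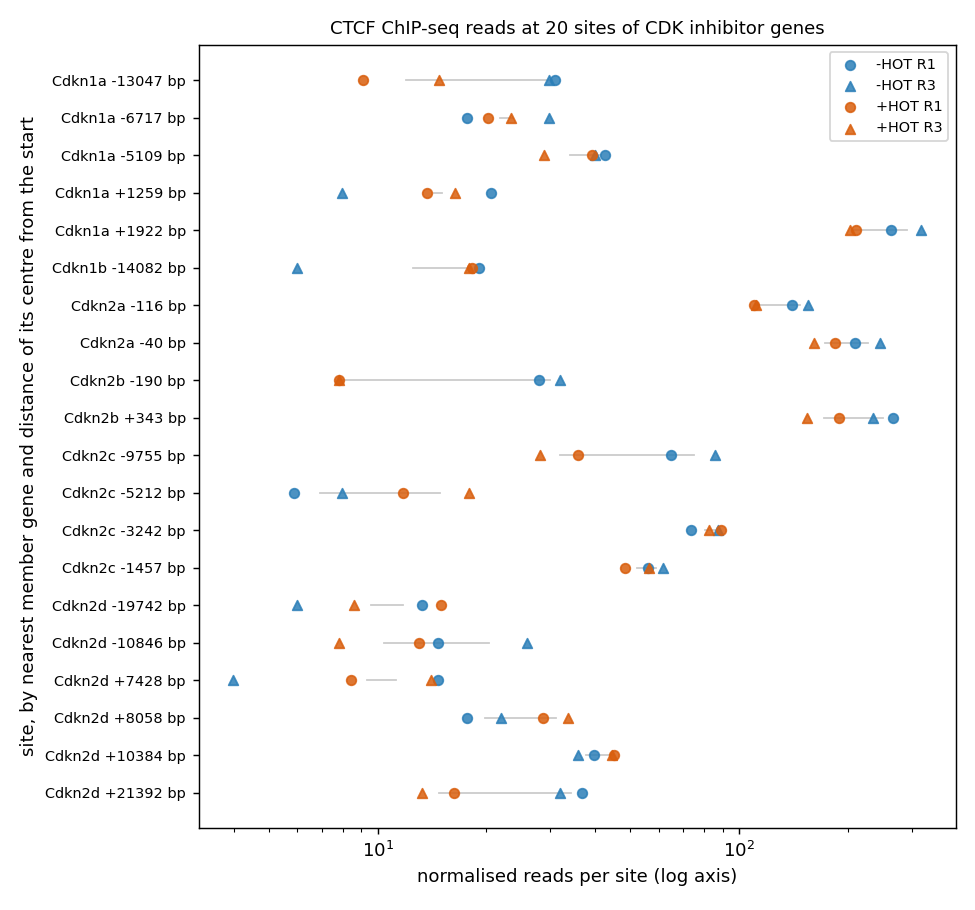
Normalised reads (log axis) of the 4 libraries at each of the 20 sites, named by the nearest member gene and the distance of the site centre from its start, with a grey line between the group means. At Cdkn2b -190 bp both +HOT libraries sit at 7.8 against 27.95 and 31.9 in the -HOT libraries, and at most weak sites the libraries of the groups lie closer together or overlap.

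**Figure D3:**
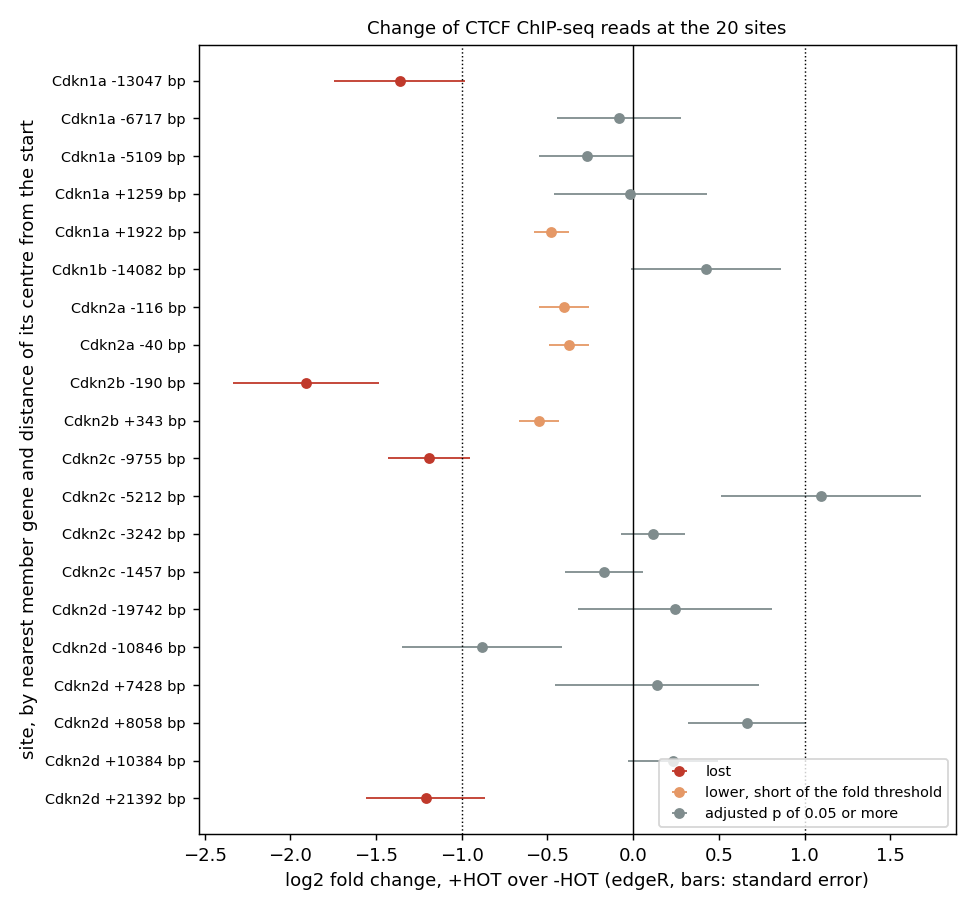
Log2 fold change (+HOT over -HOT) with its standard error at each of the 20 sites from the edgeR fit over all sites, coloured by the call, with dotted lines at a log2 fold change of -1 and 1. The 4 lost sites lie between -1.91 and -1.19, the 4 further lower sites between -0.55 and -0.38, and no site with a positive value had an adjusted p below 0.05.

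Cdkn2a was examined first, since the cells are immortalised and carry the shRNA against p19Arf. The sites at both of its starts held reads in every library. The site at the Ink4a start (chr4:88927829-88928443, 615 bp) covered the first coding exon of p16Ink4a whole. It held 209 and 245 normalised reads in -HOT (R1, R3) and 184 and 161 in +HOT, from raw counts of 142, 123, 282 and 206. It lay at percentile 96.6 of all sites in reads per kb. Both +HOT libraries were below both -HOT libraries, and the log2 fold change was -0.38 (SE 0.12, adjusted p = 0.0162, edgeR). The site at the Arf start (chr4:88940363-88940984, 622 bp) reached into the first coding exon of p19Arf. It held 140 and 155 normalised reads in -HOT and 110 and 112 in +HOT, and the groups did not overlap (log2 fold change -0.40, SE 0.15, adjusted p = 0.0422, edgeR). Of the 4 coding exons of Cdkn2a, these 2 first exons overlapped a site, and the other 2, which follow downstream, did not. The reads show that DNA of both start regions was present in the libraries. They do not give the number of copies, nor whether a product was made. Both Cdkn2a calls depend on the library: without 1 library in turn the adjusted p reached 0.205 (without -HOT R3) and 0.121 (without +HOT R3) at the Ink4a start, and it was between 0.0925 and 0.225 at the Arf start in all 4 such fits. With DESeq2 the adjusted p were 0.107 and 0.160, and with total counts in place of TMM the Arf call ended (adjusted p = 0.0769, edgeR).

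At Cdkn2b, which encodes p15Ink4b, 2 sites lay at the start with 80 bp between them, and the wide site contained the start. The wide site (chr4:88956245-88956951, 707 bp) covered the first coding exon and held 266 and 235 normalised reads in -HOT and 189 and 154 in +HOT. The groups did not overlap, and the log2 fold change was -0.55 (SE 0.11, adjusted p = 0.000298, edgeR). The narrow site upstream, whose sequence is printed above, held 27.95 and 31.9 normalised reads in -HOT and 7.82 and 7.80 in +HOT. Raw counts were 19 and 16 in -HOT and 12 and 10 in +HOT, so fewer reads were counted in the deeper libraries. It was lost with a log2 fold change of -1.91 (SE 0.43, adjusted p = 0.000702, edgeR), a 3.76-fold fall. In reads per kb it moved from percentile 75.5 of all sites in -HOT to percentile 3.39 in +HOT. The site was narrow, at percentile 4.16 of all sites in width, which raises its reads per kb. Its mean in -HOT was 29.9 normalised reads, beside a median of 31.2 over all sites and the 4 libraries. The fall passed both thresholds without any 1 library (adjusted p between 0.00307 and 0.0302). With DESeq2 the log2 fold change was -1.96 and no adjusted p was given for a site of so few reads.

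Cdkn1a, which encodes p21, held the strongest member site. It lay in an intron of the gene (chr17:29232354-29232924, 571 bp), 1922 bp downstream of the start of the transcript Cdkn1a-001. Its normalised reads were 263 and 319 in -HOT and 210 and 202 in +HOT, and its reads per kb were at percentile 99.6 of all sites. The groups did not overlap, and the log2 fold change was -0.48 (SE 0.10, adjusted p = 0.000593, edgeR). A weak site 1259 bp from the same start held 20.6 and 7.96 normalised reads in -HOT and 13.7 and 16.4 in +HOT, where the +HOT values lay between those of -HOT (log2 fold change -0.02, SE 0.45, adjusted p = 0.987, edgeR). The site 5109 bp upstream, with the 12-letter run, held 42.7 and 39.8 in -HOT and 39.1 and 28.9 in +HOT (log2 fold change -0.27, adjusted p = 0.568, edgeR).

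The lost site in the Cdkn1a window was far from the gene. It lay 13047 bp upstream (chr17:29214771-29214984, 214 bp), in an intron of Gm16197 and 1029 bp from the start of that gene. It held 30.9 and 29.9 normalised reads in -HOT and 9.12 and 14.8 in +HOT, from raw counts of 21, 15, 14 and 19. The raw counts were alike in libraries of unequal depth, so the difference appears with scaling. The log2 fold change was -1.36 (SE 0.38, adjusted p = 0.00715, edgeR). The call ended without -HOT R1 (adjusted p = 0.105) and without +HOT R1 (adjusted p = 0.0718).

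The window of Cdkn2c, which encodes p18Ink4c, contained 4 sites, all upstream of the gene. The site nearest to its start, 1457 bp upstream (chr4:109340956-109341547), held 55.9 and 61.7 normalised reads in -HOT and 48.2 and 56.2 in +HOT, and the groups overlapped (log2 fold change -0.17, SE 0.23, adjusted p = 0.679, edgeR). The strongest, 3242 bp upstream, held 73.6 and 87.6 in -HOT and 89.2 and 82.7 in +HOT (log2 fold change 0.11, SE 0.19, adjusted p = 0.747, edgeR). The site 5212 bp upstream had the highest positive value of the members, 1.10 (SE 0.58), but it rested on raw counts of 4, 4, 18 and 23 and did not pass the test (adjusted p = 0.198, edgeR). The lost site of the window lay 9755 bp upstream at the start of another gene, Faf1, whose product binds Fas (chr4:109349349-109349749, 53 bp from the Faf1 start). It held 64.7 and 85.6 normalised reads in -HOT and 35.8 and 28.1 in +HOT, and the groups did not overlap. Its log2 fold change was -1.19 (SE 0.24, adjusted p = 0.000185, edgeR), and it was the only lost member that DESeq2 also called. Its match to the matrix had 11 of 14 letters and is shown because the site was lost.
Faf1 start, Cdkn2c -9755 bp: ttcGCCACcCGGCGGCGGcc

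The window of Cdkn2d, which encodes p19Ink4d, held no site within 3000 bp of the start and none inside the gene. The site nearest to its start, 7428 bp downstream in an intron of Kri1, held 14.7 and 3.98 normalised reads in -HOT and 8.47 and 14.04 in +HOT (log2 fold change 0.14, adjusted p = 0.914, edgeR). The strongest, also in an intron of Kri1, held 39.7 and 35.8 in -HOT and 44.9 and 44.5 in +HOT (log2 fold change 0.23, SE 0.26, adjusted p = 0.614, edgeR). The lost site lay 21392 bp downstream in an intron of Atg4d, a protease of autophagy (chr9:21074116-21074406, 291 bp). It held 36.8 and 31.9 normalised reads in -HOT and 16.3 and 13.3 in +HOT, from raw counts of 25, 16, 25 and 17. Its log2 fold change was -1.21 (SE 0.35, adjusted p = 0.00834, edgeR), and the call ended without -HOT R1 (adjusted p = 0.158). The other 3 sites of the window had log2 fold changes from -0.88 to 0.66, and none passed the test.

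Cdkn1b, which encodes p27, had a single site in its window, 14082 bp upstream (chr6:134856159-134856516) and nearer to the start of Gpr19. It held 19.1 and 5.97 normalised reads in -HOT and 18.2 and 17.9 in +HOT, with a raw count of 3 in the second -HOT library (log2 fold change 0.43, SE 0.44, adjusted p = 0.570, edgeR). Cdkn1b and Cdkn2d were thus the members without a CTCF site near their starts. A site within 3000 bp of a start was present for 4 of the 6 members and for 47.9% of 22372 protein-coding genes.

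The fall at the 4 strong start sites (Cdkn1a +1922 bp, both Cdkn2a starts and Cdkn2b +343 bp) depended on how the libraries were scaled. These sites were strong and rich in GC, between 61.0% and 72.2% over the central 500 bp. With each library scaled along site strength, their log2 fold changes became -0.10, -0.09, -0.34 and -0.24 in the same order, with adjusted p of 0.612, 0.718, 0.110 and 0.148 (edgeR). With scaling along strength and GC, chosen with earlier results known, they turned to 0.15, 0.21, 0.16 and 0.08, and the adjusted p were 0.381, 0.232, 0.555 and 0.718 (edgeR). Whether these trends with strength and GC belong to the cells or to the libraries was not tested. Under the same 2 scalings the log2 fold changes of the lost sites were -1.85 and -1.87 at Cdkn2b -190 bp, -1.34 and -1.37 at Cdkn1a -13047 bp, and -1.23 and -1.27 at Cdkn2d +21392 bp. At the Faf1 start they were -1.44 and -0.95, and the second no longer reached the fold threshold.

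**Figure D4:**
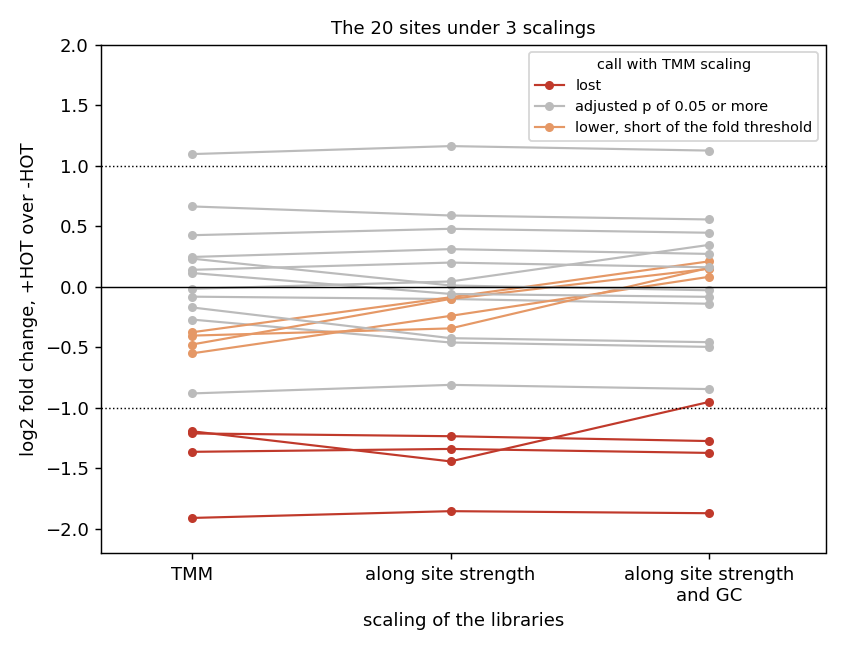
Log2 fold change (+HOT over -HOT) of the 20 sites with TMM scaling, with scaling along site strength and with scaling along site strength and GC, 1 line for each site, coloured by the call with TMM. The 4 orange lines start between -0.55 and -0.38 and end between 0.08 and 0.21, whereas 3 of the 4 red lines stay below the dotted line at -1.

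Summed over all sites of a window, Cdkn2a held the most reads of the 6 genes, and the sums of Cdkn2a, Cdkn2b and Cdkn1a were lower in +HOT. Sums were scaled and tested anew over 19470 protein-coding genes, which raises each log2 fold change by 0.12 against the scaling factors of the sites. The Cdkn2a window held 608 and 627 normalised reads in -HOT and 499 and 449 in +HOT (log2 fold change -0.37, SE 0.07, adjusted p = 1.1e-05, edgeR). The Cdkn2b window, which shares 3 of those sites, held 410 and 397 in -HOT and 312 and 283 in +HOT (log2 fold change -0.44, SE 0.09, adjusted p = 4e-05, edgeR). The Cdkn1a window held 355 and 400 in -HOT and 298 and 296 in +HOT (log2 fold change -0.34, SE 0.09, adjusted p = 0.00236, edgeR). In all 3 windows every +HOT sum was below every -HOT sum. How many of all genes had sums apart in this way was not counted, so this adds nothing to the calls. The Cdkn2c (-0.12), Cdkn2d (0.04) and Cdkn1b (0.54) sums did not pass the test, with adjusted p of 0.461, 0.883 and 0.371. Of all genes tested, 16.1% had lower and 18% higher sums, with a median log2 fold change of 0.0037. With the site offsets along strength and GC summed over each gene, no fall remained at Cdkn2a (0.09), Cdkn2b (0.02) or Cdkn1a (-0.01), with adjusted p of 0.375, 0.879 and 0.947, and the Cdkn2c sum was lower (-0.34, adjusted p = 0.0212, edgeR). The Cdkn1a call also ended without -HOT R3 (adjusted p = 0.103) and with DESeq2 (adjusted p = 0.0998).

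The order of the windows by reads per kb of window was Cdkn2a (9.07), Cdkn2b (7.83), Cdkn1a (6.78), Cdkn2c (4.30), Cdkn2d (2.94) and Cdkn1b (0.337). Cdkn2a and Cdkn2b have sites in common and are not independent in this order. Among all protein-coding genes with a site, the sum of Cdkn2a was at percentile 74.1, that of Cdkn1a at 49.7 and that of Cdkn1b at 2.30. The genes with sums most alike over the 4 libraries, by Euclidean distance on the log2 scale, were Wisp1 for Cdkn2b (0.0944), Serinc3 for Cdkn1a (0.0454), Bzw1 for Cdkn2c (0.0358), Slc38a6 for Cdkn2d (0.0858) and Cyp11b1 for Cdkn1b (0.354).

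Genes that act with the inhibitors were looked at in the same way, with 20 genes for the cyclins and kinases, the retinoblastoma and E2F families, the Arf, Mdm2 and p53 axis, the other Cdkn genes and 2 Polycomb regulators of the Ink4 locus. Their windows held 163 sites, of which 160 were tested. Of these 0 were gained by edgeR or DESeq2 (1 site had a log2 fold change above 1 at an unadjusted p below 0.05, edgeR). By edgeR 2 were lost, 2 higher and 26 lower. Over all sites 3.9% were gained, 1.5% lost, 9.45% higher and 9.08% lower. Of the 163 sites 30.7% were promoter sites and 14.1% CpG-island-like, beside 16.9% and 5.0% of all sites. Over the whole table, promoter sites were lower in 24% of cases and CpG-island-like sites in 38.3%. The median log2 fold change of the pathway sites was -0.17. DESeq2 called 14 lower and 0 higher, and scaling along strength, alone or with GC, gave 17 lower and 3 higher. The shares of all sites lower or higher in these settings were not counted, so these counts have no background beside them. Calls over all sites did change with the setting. Lost sites numbered 1491 with TMM, 719 with DESeq2, 1920 along strength and 1566 along strength and GC. The lost site of E2f3, a transcription factor that drives entry into S phase, lay 1019 bp downstream of its start (chr13:30074918-30075220) and held 64.7 and 71.7 normalised reads in -HOT and 20.8 and 21.8 in +HOT. Its log2 fold change was -1.66 (SE 0.27, adjusted p = 4.3e-06, edgeR), and it stayed past both thresholds under each scaling, each filter, DESeq2 and each left-out library. The E2f3 site 118 bp upstream of the start was not called (log2 fold change -0.10, adjusted p = 0.914, edgeR). Summed over its window, E2f3 did not pass the test (log2 fold change -0.07, adjusted p = 0.68, edgeR). The lost site of Rbl1, which encodes the retinoblastoma relative p107, lay 484 bp downstream of its start (chr2:157029620-157029908). It held 47.1 and 35.8 in -HOT and 20.8 and 17.2 in +HOT (log2 fold change -1.13, SE 0.31, adjusted p = 0.0063, edgeR). That call ended without -HOT R1 (adjusted p = 0.220) and with DESeq2 (adjusted p = 0.0656). The Rbl1 site 11 bp upstream of the start was not called (log2 fold change 0.14, adjusted p = 0.790, edgeR). Summed over its window, Rbl1 was higher in +HOT (log2 fold change 0.20, adjusted p = 0.0463, edgeR). Summed by window, 6 of the 20 genes were lower and 2 higher, Rbl1 among the latter, beside 16.1% and 18% of all genes. Their log2 fold changes ran from -0.47 to 0.30. Shares of all genes were not counted for the settings that follow. DESeq2 called 3 of these sums lower and 0 higher, the site offsets along strength and GC gave 6 lower and 0 higher, and without 1 library in turn 4 to 5 were lower and 0 to 1 higher.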

How the data were processed

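CTCF ChIP-seq was carried out by the authors in 2 -HOT and 2 +HOT immunoprecipitations, grouped by the sample titles. By the study's methods, reads were mapped to mm9 with BWA, and peaks were called with MACS2 (with versions not stated in the sources used here). The authors deposited raw read counts per site, which were used. Another 4 columns, which the authors normalised, were left aside, as were their fold changes, p-values and lists of gained and lost sites. Column numbers (R1, R3) differ from the titles, so columns were assigned to groups only.

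Deposited counts were tested with edgeR 4.0.16 in R 4.3.3 (TMM, filterByExpr with a minimum count of 10, robust quasi-likelihood fit, Benjamini-Hochberg adjustment). The test was tested on simulated data. SE is the absolute log2 fold change divided by the square root of F. Each library was entered separately. Divided by its degrees of freedom, the chi-square of counts was 1.09 for both -HOT libraries and 1.41 for both +HOT libraries, where sampling alone gives a value near 1.

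Sites were placed by their centre on GENCODE vM1 (NCBIM37, 1-based). The CTCF matrix came from matches in the 5000 strongest sites, and its thresholds from 20000 shuffled sites. Scaling along strength used loess trends of each library, and GC that of the central 500 bp.

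Named sites were, for each member, the strongest, the nearest to each start, all within 3000 bp of a start and all gained or lost, with others by range. Sites shown by sequence alone, and those at -5109 and -5212 bp, were added after their values were seen. Pathway genes were named for a gained or lost site, and for likeness the nearest of 3 genes is given (pseudocount 1), of which 1 is not reported here. Members and lists were chosen with earlier results of these data known.

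Alternatives were DESeq2 1.42.0, other scalings and filters, a replicate block, each library left out, windows of 5 and 50 kb, and a stricter motif score.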

Additional observations from a re-analysis of the deposited data

How the results depend on the processing

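Depth limits the weak sites: 5 of 20 member sites had under 10 reads in a library, and the 4 lost sites rested on 10 to 55 reads. The 4 lost member sites became 1 with DESeq2 (3 had no adjusted p), 2 at a mean of at least 20 counts (12 members left), 1 with windows of 5 kb and 2 to 4 without 1 library. The 8 lower sites became 7 with total counts (the Arf call ended), 6 at a mean of at least 20 counts, 4 with scaling along strength and 4 along strength and GC, 3 with DESeq2, 5 with 5 kb and 5 to 6 without 1 library, and 1 site was higher with 50 kb. The median of -0.22 became -0.24 (DESeq2 size factors), -0.17 (total counts), -0.10 (strength), 0.027 (strength and GC), -0.34 (mean of 20), -0.25 (DESeq2), -0.38 (5 kb), -0.12 (50 kb) and -0.39 to -0.27 without 1 library. The 2 lost pathway sites became 4 (strength and GC), 1 (DESeq2) and 1 to 4 without 1 library, where 0 to 1 were gained. Changed member sums fell from 3 to 1 with site offsets along strength and GC. Turned signs with strength and GC were 0.15 (Cdkn1a +1922 bp), 0.35 (Cdkn1a +1259 bp), 0.21 (Ink4a), 0.16 (Arf), 0.083 (Cdkn2b +343 bp), -0.083 (Cdkn2c -3242 bp), -0.029 (Cdkn2d +10384 bp) and, for sums, 0.088 (Cdkn2a), 0.023 (Cdkn2b) and -0.21 (Cdkn2d). Scaling along strength turned Cdkn1a +1259 bp to 0.044, Cdkn2c -3242 bp to -0.059 and the Cdkn2d sum to -0.14. Cdkn1a +1259 bp was 0.034 with total counts and 0.00063 with DESeq2, the Cdkn2d sum -0.087 with the scaling factors of the sites and -0.14 with 50 kb (adjusted p = 0.0397, edgeR), and the Cdkn2c sum 0.14 with 5 kb. Without 1 library, ranges that crossed 0 were -0.47 to 0.28 (Cdkn1a -6717 bp), -0.47 to 0.89 (Cdkn1a +1259 bp), -0.091 to 1.57 (Cdkn1b), -0.034 to 0.22 (Cdkn2c -3242 bp), -0.42 to 1.44 (Cdkn2d +7428 bp), -0.16 to 0.98 (Cdkn2d -19742 bp), -0.28 to 0.0025 (Cdkn2c sum) and -0.024 to 0.10 (Cdkn2d sum). The cause of these changes was not tested. The motif count was 12 at the stricter score. Whether the numbers R1 and R3 pair libraries cannot be told. Same-numbered deviations had r = 0.03, but they were largely sampling (chi-square over degrees of freedom 1.09 and 1.41). Paired libraries could thus also give a small r. A replicate block left 4 lost and 8 lower member sites and changed no member call, while the lower pathway sites went from 26 to 28.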
